A study of Rattus norvegicus with 9 samples.

Results

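A set of 8 genes of the brain's pericellular matrix were described in the cerebral cortex of newborn rats: the lecticans Acan (aggrecan), Bcan (brevican), Ncan (neurocan) and Vcan (versican), the link protein gene Hapln1, the tenascins Tnr and Tnc, and the receptor phosphatase Ptprz1. The genes are 8 of 14217 genes with a probe set of their own, and all probe sets whose platform annotation gives 1 symbol only, that of a member, were taken, which gave 17 of the 31042 probe sets that are not controls. Each of the 8 genes had at least 1 probe set, and Vcan had 5, Hapln1 3, Acan, Bcan and Ptprz1 2 each, and Ncan, Tnr and Tnc 1 each.

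The animals were Hsd:Sprague Dawley SD rats of a line fed diet with or without 4-methylimidazole (4-MeI), a nitrogen heterocycle that forms when foods brown, from before the first breeding and on through later breedings and generations. Cortex was taken on postnatal day 4 from F2b offspring, with 1 pup chosen in each litter. The 3 groups, 0 ppm (control), 750 ppm and 2500 ppm 4-MeI, have 3 Affymetrix arrays each, described as biological replicates; whether an array holds the RNA of 1 pup or of a pool is not stated. The title names gestational exposure and maternal seizures, but dams with seizures are not identified and pup sex is not given. All groups shared strain, age and tissue.

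Lecticans are chondroitin sulfate proteoglycans that bind the polysaccharide hyaluronan at one end and tenascins at the other. Link proteins such as Hapln1 lock the lectican onto hyaluronan, and Tnr joins several lecticans together. In the young brain this mesh is loose and is held to be rich in neurocan and versican; around some neurons it later condenses into perineuronal nets with much aggrecan and brevican. Ptprz1, made by radial glia, astrocytes and oligodendrocyte precursors, is both a receptor for matrix ligands and, in a secreted form, a matrix proteoglycan (phosphacan).

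Values are log2 RMA intensities, on which a difference of 1 is a doubling, and levels of different probe sets are not comparable with each other. Array medians differed by less than 0.1, and any pair of arrays in a group correlated at 0.988 or more across probe sets. Probe sets in the lowest 30% by mean over the 9 arrays (a log2 mean under 6.35) were not tested. That left 14 of the 17 member probe sets, and each of the 8 genes kept at least 1. Of 10 measured markers of cortical excitatory neurons, 9 were over the filter. Neurod6 had a mean over the arrays of 13.02 and Fezf2 of 10.44, while Tbr1 was under the filter at 5.96. Markers of neighbouring tissues differed between the groups and are given further below.

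Versican was the 1 of the 8 genes with a probe set past the threshold. At 2500 ppm the Vcan probe set 1371232_a_at fell by 0.56 (SE 0.10, n = 3 against 3, 95% confidence interval -0.79 to -0.34, adjusted p = 0.0475, limma); intensity fell by 32.3%. It was the 1 of 14 tested member probe sets past the adjusted threshold of 0.05, on a background of 0.686% of all probe sets called in this comparison and 0.405% called lower. The gene lies on chromosome 2 of the GRCr8 assembly, from 22497035 to 22595955.

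The promoter of Vcan is shown because this gene carries the one call, and that of Hapln1 because it is the neighbouring gene. Both windows are the 250 bases before the gene's start in RefSeq on GRCr8, printed 5′ to 3′ on the gene's own strand. Vcan is on the minus strand (chr2:22595956-22596205) and Hapln1 on the plus strand (chr2:22366717-22366966), so their 3′ ends face each other.
Vcan: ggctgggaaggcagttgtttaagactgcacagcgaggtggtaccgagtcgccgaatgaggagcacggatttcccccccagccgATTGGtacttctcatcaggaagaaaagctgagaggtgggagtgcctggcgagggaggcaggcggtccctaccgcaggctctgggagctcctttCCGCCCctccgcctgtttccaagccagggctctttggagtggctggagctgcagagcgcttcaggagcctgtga
Hapln1: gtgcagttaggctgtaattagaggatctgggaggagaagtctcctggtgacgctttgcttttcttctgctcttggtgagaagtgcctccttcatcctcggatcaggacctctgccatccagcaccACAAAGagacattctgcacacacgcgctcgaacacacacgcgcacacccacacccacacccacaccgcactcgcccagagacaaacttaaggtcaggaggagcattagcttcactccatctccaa
Capitals mark matches, on either strand, to the motifs searched: TATAAA (the TATA box), CCAAT (the CCAAT box), GGGCGG (the GC box) and, for TCF/LEF factors, the forms CTTTGA as well as CTTTGT. The Vcan window held CCAAT (read as ATTGG, 167 bases before the start) and GGGCGG (read as CCGCCC, 74 bases before). The Hapln1 window held CTTTGT (read as ACAAAG, 125 bases before). Of 33469 windows of this length, 34.0% held the CCAAT box, 30.5% the GC box, 16.3% the CTTTGT form, 13.9% the CTTTGA form and 12.9% the TATA box, so each match is a common one and only describes the letters. RefSeq lists another Vcan window that starts further downstream, and 7 of the 8 genes had a window in the table used.

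On 1371232_a_at the controls read 10.38, 10.46 and 10.33, the 750 ppm arrays 9.91, 10.30 and 10.11, and the 2500 ppm arrays 9.71, 9.89 and 9.88. The groups lay one below the other without overlap, with means of 10.39 (SD 0.066), 10.11 (SD 0.20) and 9.83 (SD 0.10). At 750 ppm the difference from control was -0.29 (SE 0.10, adjusted p = 0.380), and between the doses it was -0.28 (SE 0.10, adjusted p = 0.313). Both had an unadjusted p under 0.05 and neither passed the adjusted threshold.

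The second Vcan probe set, 1388054_a_at, followed the same order of group means. Its controls read 10.44, 10.49 and 10.36, the 750 ppm arrays 10.00, 10.42 and 10.21, and the 2500 ppm arrays 9.80, 9.97 and 10.02. The 2500 ppm arrays were all below the controls, while 1 of the 750 ppm arrays lay among them. The difference at 2500 ppm was -0.50 (SE 0.11, adjusted p = 0.0745), which missed the threshold, and at 750 ppm it was -0.22 (SE 0.11, adjusted p = 0.519). Without 750 ppm replicate 1 the 750 ppm difference was -0.11 (adjusted p = 0.858) here and -0.19 (adjusted p = 0.834) on 1371232_a_at. The suffix _a_at marks a probe set that reads several transcripts of 1 gene, and both sets read Vcan RNA, so they are not replicates of each other.

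The brightest Vcan probe set, 1388142_at, was lower by less. Controls read 11.37, 11.46 and 11.50, the 750 ppm arrays 11.25, 11.28 and 11.15, and the 2500 ppm arrays 11.02, 11.23 and 11.26. Here both exposed groups lay below all controls and overlapped each other. The difference was -0.27 (SE 0.078, adjusted p = 0.143) at 2500 ppm and -0.22 (SE 0.078, adjusted p = 0.401) at 750 ppm.

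Among the tested Vcan probe sets, the estimated change in intensity at 2500 ppm ranged from -17.2% on 1388142_at to -32.3% on 1371232_a_at. Within each array, the log2 value of 1371232_a_at minus that of 1388142_at lay between -1.17 and -0.98 in controls and between -1.38 and -1.31 at 2500 ppm. The groups did not overlap, and the mean difference shifted by -0.29 (two-sided exact permutation p = 0.1, the smallest that 3 against 3 arrays allow; 0.28 after adjustment over 14 tests, from 7 pairs of probe sets of 1 gene at both doses). At 750 ppm the same quantity shifted by -0.069 (exact permutation p = 0.7). The other tested Vcan pairs had the same exact permutation p of 0.1 at 2500 ppm. Their shifts were -0.23 for 1388054_a_at minus 1388142_at and -0.062 for 1371232_a_at minus 1388054_a_at. The Vcan pairs share probe sets, so their tests are not independent of each other. At 750 ppm 1371232_a_at minus 1388054_a_at shifted by -0.066 (exact permutation p = 0.1, 0.28 adjusted). The Ptprz1 pair, 1388015_at minus 1368350_at, shifted there by -0.14 with the same exact permutation p. Vcan RNA is spliced into several forms, and which form each probe set reads was not analysed here.

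Both other Vcan probe sets were under the filter and were not tested in the fit. On 1388265_x_at, whose suffix marks probes that can also bind other sequences, controls read 6.40, 6.49 and 7.29 and the 2500 ppm arrays 5.66, 6.16 and 6.18. All 2500 ppm arrays, and all 750 ppm arrays (5.99, 6.33 and 5.99), lay below the controls, with control replicate 3 standing above the rest. With no filter, the differences were -0.73 (adjusted p = 0.189) and -0.62 (adjusted p = 0.454). On 1371233_at all 9 arrays read between 4.09 and 4.48, and the groups overlapped.

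**Figure D1:**
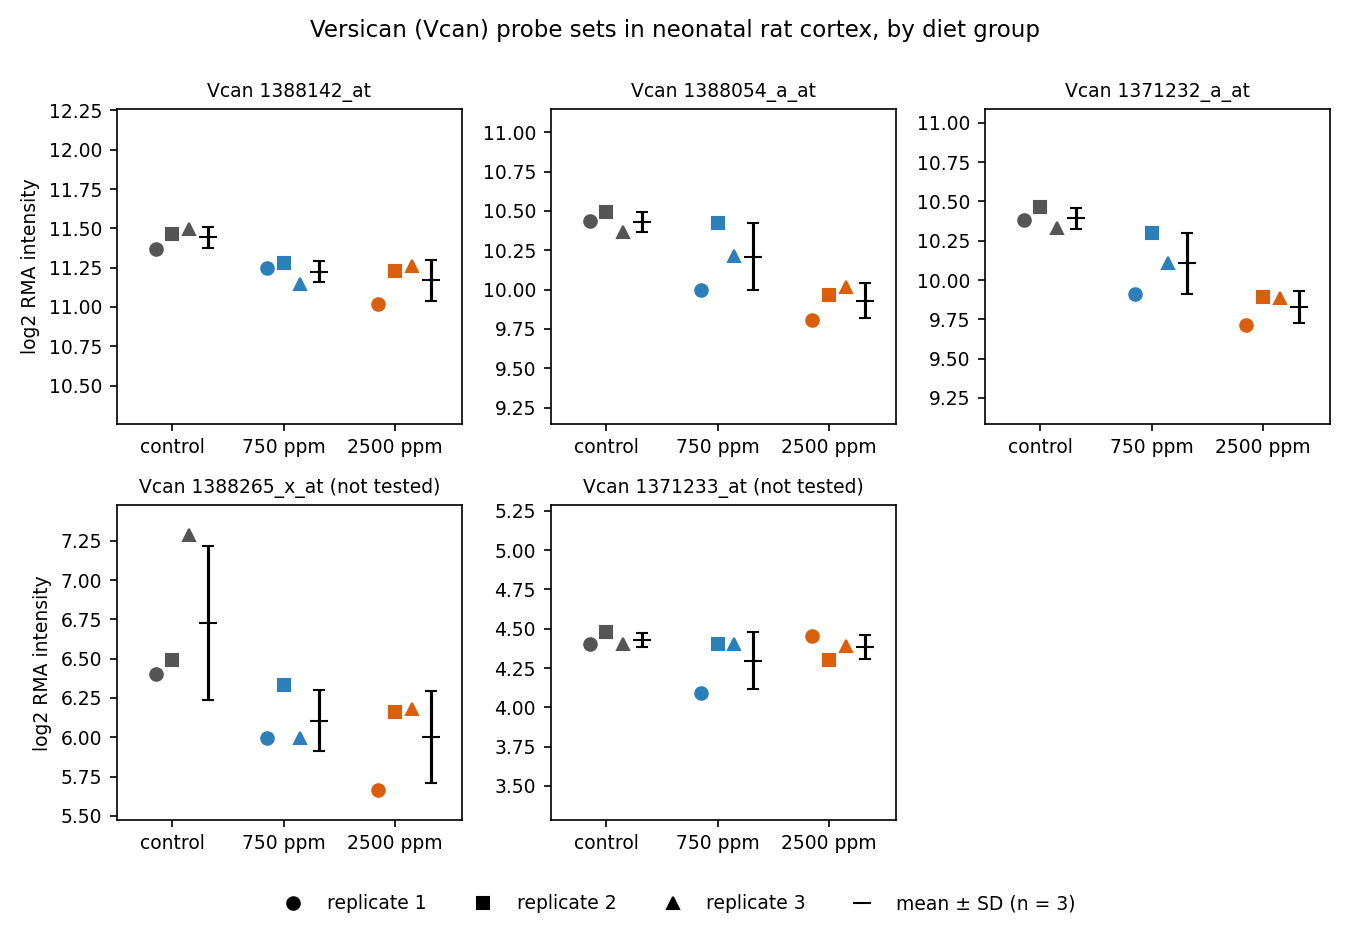
Log2 RMA intensity of the 5 Vcan probe sets on each array, by diet group; symbols give the replicate number, bars the mean ± SD (n = 3), and each panel spans the same range of log2 values. On 1371232_a_at the means step down from 10.39 to 10.11 and 9.83; on 1371233_at, near the bottom of the scale, the groups overlap.

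The Vcan call was close to the threshold and rested on every array of the groups compared. Without any 1 of the control or 2500 ppm arrays the change of 1371232_a_at stayed between -0.50 and -0.59, with an adjusted p between 0.0774 (without control replicate 1) and 0.151 (without control replicate 2). It was also lost after a second quantile normalization (-0.54, adjusted p = 0.0527). With array weights, or with only control and 2500 ppm arrays fitted, 1388054_a_at passed as well (adjusted p = 0.0167 and 0.0267). Taking the concentration as a number, the slope of 1371232_a_at was -0.21 per 1000 ppm (SE 0.041, adjusted p = 0.0568), just short of the threshold, and that of 1388054_a_at was -0.19 (SE 0.041, adjusted p = 0.0745); both slopes passed without 750 ppm replicate 1 (adjusted p = 0.0200 and 0.0317).

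Aggrecan, the lectican of mature perineuronal nets, had no probe set with a mean below control at 2500 ppm. On 1387355_at controls read 7.52, 7.50 and 7.56, the 750 ppm arrays 7.47, 7.49 and 7.58, and the 2500 ppm arrays 7.76, 7.56 and 7.75. At 2500 ppm 2 of 3 arrays lay above all others, and the remaining one was level with the highest control. The difference from control was 0.16 (SE 0.068, adjusted p = 0.293), with an unadjusted p under 0.05. The other Acan probe set, 1368836_a_at, was at 0.033 (SE 0.080, adjusted p = 0.869), and its 2500 ppm arrays were all above the 750 ppm arrays, by 0.15 on average (SE 0.080, adjusted p = 0.485).

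Brevican, a lectican of glial cells that becomes abundant as the brain matures, and neurocan, a lectican of the young brain, had no probe set past the threshold. Bcan on 1387934_at read 10.87, 10.83 and 10.79 in controls, 10.79, 10.74 and 10.61 at 750 ppm and 10.92, 10.67 and 10.90 at 2500 ppm, and the groups overlapped. The Bcan differences at 2500 ppm were -0.0016 (95% confidence interval -0.18 to 0.18) and, on 1369831_at, -0.031 (95% confidence interval -0.21 to 0.15). Ncan on 1387541_at read 8.15, 8.08 and 7.97 in controls, 7.94, 7.80 and 8.07 at 750 ppm and 7.94, 7.98 and 7.98 at 2500 ppm. Its difference was -0.13 (SE 0.077, adjusted p = 0.582) at 750 ppm and -0.10 (SE 0.077, adjusted p = 0.552) at 2500 ppm. The intervals of both genes contain 0 and exclude, at 2500 ppm, a fall as large as the -0.56 of Vcan 1371232_a_at. That was the largest fall among the tested Vcan probe sets. The 95% confidence interval of Ncan, -0.276 to 0.073, includes the -0.272 of the brightest Vcan probe set, 1388142_at. The Bcan intervals exclude that value. The difference between genes itself was not tested.

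The Hapln1 link protein gene spread widely within its groups. On 1370125_at controls read 6.99, 6.91 and 6.40, the 750 ppm arrays 6.99, 6.69 and 6.63, and the 2500 ppm arrays 6.80, 6.49 and 6.71. Control replicate 3 was the lowest of all 9 arrays, and the groups overlapped. The difference at 2500 ppm was -0.099 (SE 0.16, adjusted p = 0.800), and that of 1386310_at was -0.18 (SE 0.25, adjusted p = 0.760), with a 95% confidence interval from -0.75 to 0.38 on the latter. The third probe set, 1384541_at, was under the filter, with a mean of 4.64 and control replicate 3 again lowest at 4.16.

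Tenascin-R, made by oligodendrocyte lineage cells and some neurons and able to cross-link lecticans, had the widest range of the main probe sets, the one with the highest mean of each gene. On 1369692_at controls read 9.95, 10.18 and 9.84, the 750 ppm arrays 9.18, 9.61 and 10.27, and the 2500 ppm arrays 9.58, 9.56 and 9.30. All 2500 ppm arrays were below all controls, whereas 750 ppm replicate 3 was the highest of the 9 and 750 ppm replicate 1 the lowest. The difference at 2500 ppm was -0.51 (SE 0.23, 95% confidence interval -1.04 to 0.010, adjusted p = 0.320). At 750 ppm it was -0.30 (SE 0.23, adjusted p = 0.660), and it ranged from -0.048 (adjusted p = 0.973) without 750 ppm replicate 1 to -0.60 (adjusted p = 0.156) without 750 ppm replicate 3. Neither dose passed.

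Tenascin-C, a matrix protein of immature glia and germinal zones, had no change past the threshold. On 1373401_at controls read 11.37, 11.43 and 11.36, the 750 ppm arrays 11.38, 11.36 and 11.12, and the 2500 ppm arrays 11.16, 11.33 and 11.42. The groups overlapped, with -0.081 (SE 0.089, adjusted p = 0.689) at 2500 ppm and -0.10 (SE 0.089, adjusted p = 0.709) at 750 ppm.

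Ptprz1 was measured on a pair of bright probe sets. On 1388015_at controls read 12.37, 12.29 and 12.38, the 750 ppm arrays 12.26, 12.30 and 11.93, and the 2500 ppm arrays 12.26, 12.18 and 12.01. The 2500 ppm arrays all lay below the controls, while the highest 750 ppm array was level with the lowest control. The difference at 2500 ppm was -0.20 (SE 0.10, adjusted p = 0.388) there and -0.14 (SE 0.091, adjusted p = 0.479) on 1368350_at, where the arrays also did not overlap with controls. In both exposed groups replicate 3 was the lowest array on both probe sets.

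**Figure D2:**
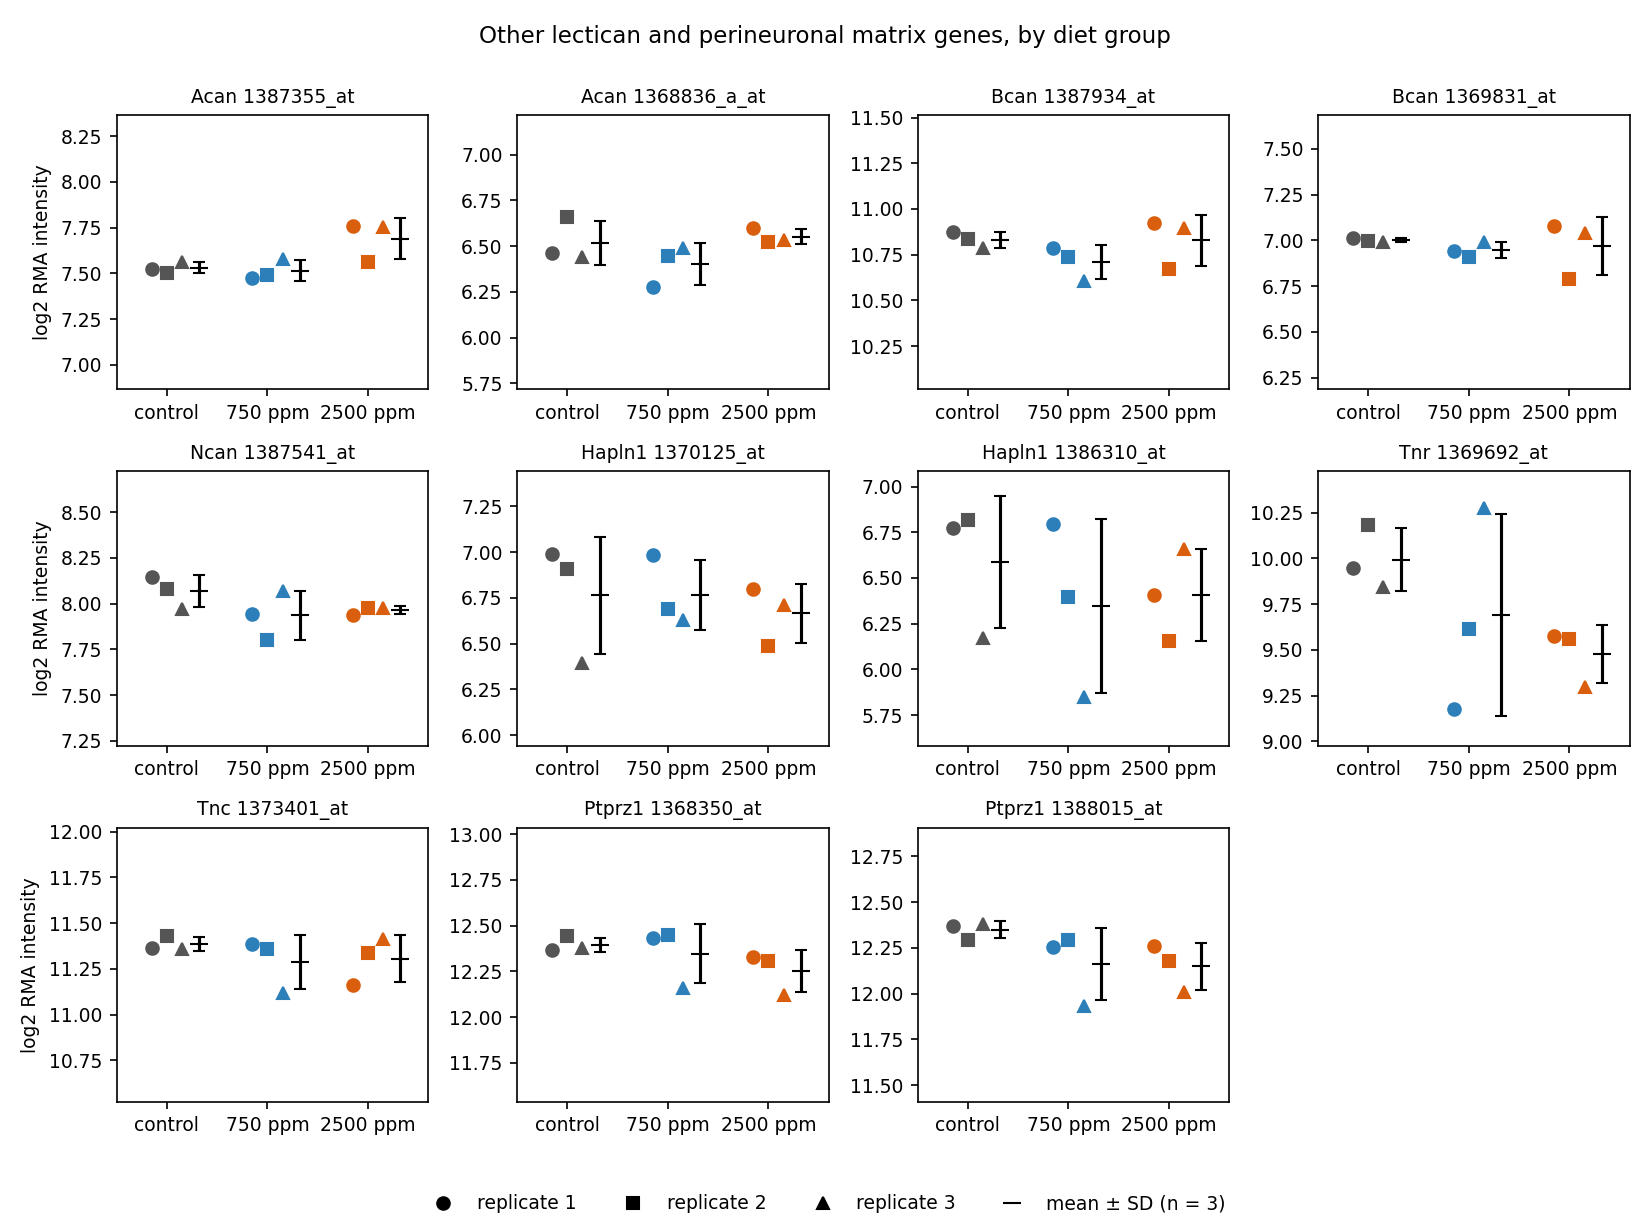
Log2 RMA intensity of the 11 tested probe sets of the other 7 genes on each array, by diet group; symbols give the replicate number, bars the mean ± SD (n = 3), and each panel spans the same range of log2 values. Tnr is lower on all 2500 ppm arrays than on all controls and spreads from 9.18 to 10.27 at 750 ppm, while the 2500 ppm arrays of Acan, Bcan, Ncan and Tnc overlap with controls.

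Counted together, 12 of the 14 tested member probe sets were lower and 2 higher than control at 2500 ppm, with a median of -0.12 against 0.0070 over all 21729 probe sets tested. At an unadjusted p under 0.05 there were 3 lower and 1 higher, on backgrounds of 9.12% and 6.89%. The 3 lower ones were all Vcan and the higher one Acan. Groups did not overlap for 6 probe sets, all lower (3 of Vcan, 2 of Ptprz1, 1 of Tnr), against 13.4% of all probe sets lower and 9.87% higher without overlap. Probe sets of 1 gene read the same RNA, so these counts hold fewer independent measurements than probe sets.

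At 750 ppm, 13 of 14 were lower and 1 higher, with a median of -0.13 against 0.0023 over all probe sets, and 0 passed the adjusted threshold in limma (background 0.00920%). At an unadjusted p under 0.05 there were 2 lower and 0 higher (backgrounds 4.37% and 5.77%). Both were Vcan probe sets, and the same 2 did not overlap with control (backgrounds 6.58% lower and 7.61% higher). This comparison uses the same controls as that of 2500 ppm, so these comparisons are not independent of each other.

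Between the doses, 7 member probe sets were higher and 7 lower at 2500 ppm than at 750 ppm, with a median of 0.0036, and 0 passed in limma (background 0.322%). At an unadjusted p under 0.05 there were 1 higher, Acan 1387355_at, and 2 lower, both Vcan (backgrounds 5.25% and 7.33%). Groups did not overlap for 1 higher, Acan 1368836_a_at, and 1 lower, Vcan 1371232_a_at (backgrounds 7.88% and 9.52%). For the slope with concentration 0 passed (background 0.479%), and 1 higher and 3 lower had an unadjusted p under 0.05 (backgrounds 6.11% and 8.91%).

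**Figure D3:**
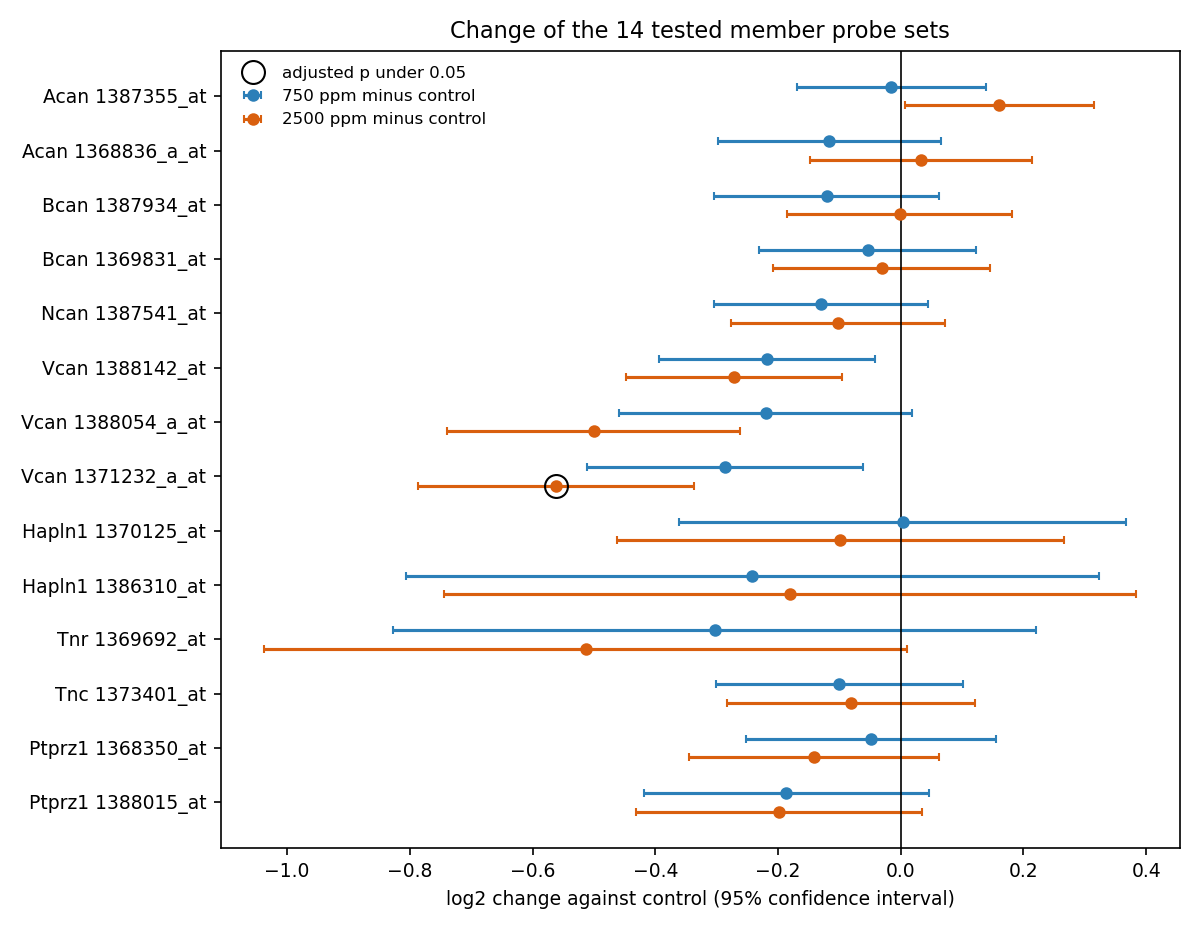
Log2 change against control of the 14 tested member probe sets at 750 ppm and 2500 ppm, with 95% confidence intervals from limma; a ring marks an adjusted p under 0.05. The 1 ringed point is Vcan 1371232_a_at at -0.56, and the intervals of Hapln1 and Tnr are the widest.

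Each lectican gene lies beside a link protein gene, and the values of the neighbours can be set side by side. No other protein-coding gene lies between Vcan and Hapln1 (65.3 kb apart), Bcan and Hapln2 (21.0 kb), Ncan and Hapln4 (4.67 kb) or Acan and Hapln3 (2.05 kb) in GRCr8. On the main probe sets at 2500 ppm, Vcan was at -0.27 and Hapln1 at -0.099, and Bcan at -0.0016 beside Hapln2 at 0.22 (adjusted p = 0.233). Acan was at 0.16 beside Hapln3 at 0.22 (adjusted p = 0.312), and Ncan at -0.10 beside Hapln4 at -0.038 (adjusted p = 0.840). None of these 8 values passed the adjusted threshold.

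The other genes of the matrix pathway were taken 1 probe set a gene, with p-values from the same fit. Of 11606 genes tested so, 8.56% lay above and 6.27% below control at 2500 ppm with an unadjusted p under 0.05 (7.14% and 2.69% at 750 ppm), and 0.612% passed adjusted at 2500 ppm. Among 13 tested proteases of lecticans and their inhibitors, 2 rose at 2500 ppm. Adamts1, a protease that cleaves versican and aggrecan, rose by 0.72 (SE 0.11, adjusted p = 0.0268), and Mmp2, a gelatinase, rose by 0.96 (SE 0.12, adjusted p = 0.0185). Mmp2 no longer passed with control replicate 2 (adjusted p = 0.0653) or 3 (0.0509) left out, or with 2500 ppm replicate 1 (0.0644) or 2 (0.0705) left out.

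Adamts1 read 6.59, 6.56 and 6.34 in controls, 6.77, 6.73 and 6.43 at 750 ppm and 7.25, 7.29 and 7.10 at 2500 ppm. The 2500 ppm arrays stood clear of all others, and the 750 ppm arrays overlapped with controls. The call was kept without control replicate 1 and lost without each of the other control and 2500 ppm arrays, with an adjusted p of at most 0.105. Timp1, an inhibitor of metalloproteases, was 0.46 higher (SE 0.091, adjusted p = 0.0592, and 0.0495 without 750 ppm replicate 3). It also passed after a second quantile normalization (adjusted p = 0.0418) and with array weights (0.0106), and missed the threshold in 16 of 19 alternatives. Plat, tissue plasminogen activator, was 0.34 higher (SE 0.095, adjusted p = 0.137). In all, 4 of the 13 had an unadjusted p under 0.05 above control and 1 below it, with a median of 0.15 against 0.020 over all genes; at 750 ppm 4 were higher and 2 lower.

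Genes of hyaluronan synthesis, binding and breakdown lay on both sides of control at 2500 ppm. Of 11 tested, 3 were higher and 1 lower at p under 0.05 before adjustment, and 0 passed adjusted. Has2, a hyaluronan synthase, was at -0.38 (SE 0.17, adjusted p = 0.309), with controls at 7.42, 7.05 and 7.27 and 2500 ppm arrays at 6.67, 6.86 and 7.08, which overlap. Cd44, a hyaluronan receptor, was at 0.41 (SE 0.10, adjusted p = 0.107), Lyve1, a hyaluronan receptor of lymphatic cells and border macrophages, at 1.28 (SE 0.34, adjusted p = 0.118), and Stab1, a scavenger receptor of macrophages, at 0.82 (SE 0.23, adjusted p = 0.137). Lyve1 passed without control replicate 1 (1.70, adjusted p = 0.0301) and was at 0.83 without control replicate 3, where Stab1 was at 0.53. Stab1 passed with array weights (adjusted p = 0.0412). At 750 ppm 4 were higher, among them Lyve1 at 1.44 (adjusted p = 0.203, and 0.0314 without control replicate 1), and 0 lower.

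Genes that build chondroitin sulfate, the sugar chain of the lecticans, showed no member past the adjusted threshold among 15 tested. At 2500 ppm 2 were lower and 0 higher with an unadjusted p under 0.05, with a median of -0.020. These were Csgalnact2, which starts the chain, at -0.22 (SE 0.066, adjusted p = 0.154), and Chsy3, which lengthens it, at -0.30 (SE 0.10, adjusted p = 0.209; -0.19 without control replicate 2). Csgalnact2 read 8.66, 8.71 and 8.80 in controls and 8.40, 8.53 and 8.58 at 2500 ppm, without overlap, and Chsy3 shared its lowest control value of 7.11 with 1 of the 2500 ppm arrays. At 750 ppm 1 of 15 was lower and 0 higher.

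Among 11 other matrix proteins and link proteins, 3 were higher and 0 lower at p under 0.05 before adjustment at 2500 ppm, with a median of 0.22 and 0 past the adjusted threshold. They were Hapln2, Hapln3 and Nid1, a basement membrane protein, at 0.30 (SE 0.10, adjusted p = 0.195). Without control replicate 3 Nid1 was at 0.17 and Hapln3 at 0.13, and Hapln2 passed with array weights (0.34, adjusted p = 0.0204). At 750 ppm 4 were higher, with Nid2 at 0.74 (adjusted p = 0.268) and Fn1, fibronectin, at 0.50 (adjusted p = 0.300), and 1 lower. Of 16 partners and receptors of the matrix, 2 were higher and 1 lower at 2500 ppm, with a median of -0.012 (at 750 ppm 0 and 1). Mdk, midkine, a ligand of Ptprz1, was at 0.50 (SE 0.14, adjusted p = 0.136), and Rtn4rl1, a Nogo receptor family member that binds chondroitin sulfate, at 0.30 (SE 0.084, adjusted p = 0.135). Both passed with array weights (adjusted p = 0.0468 and 0.0273). Ncam1, a neural cell adhesion molecule, was at -0.23 (SE 0.086, adjusted p = 0.230).

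**Figure D4:**
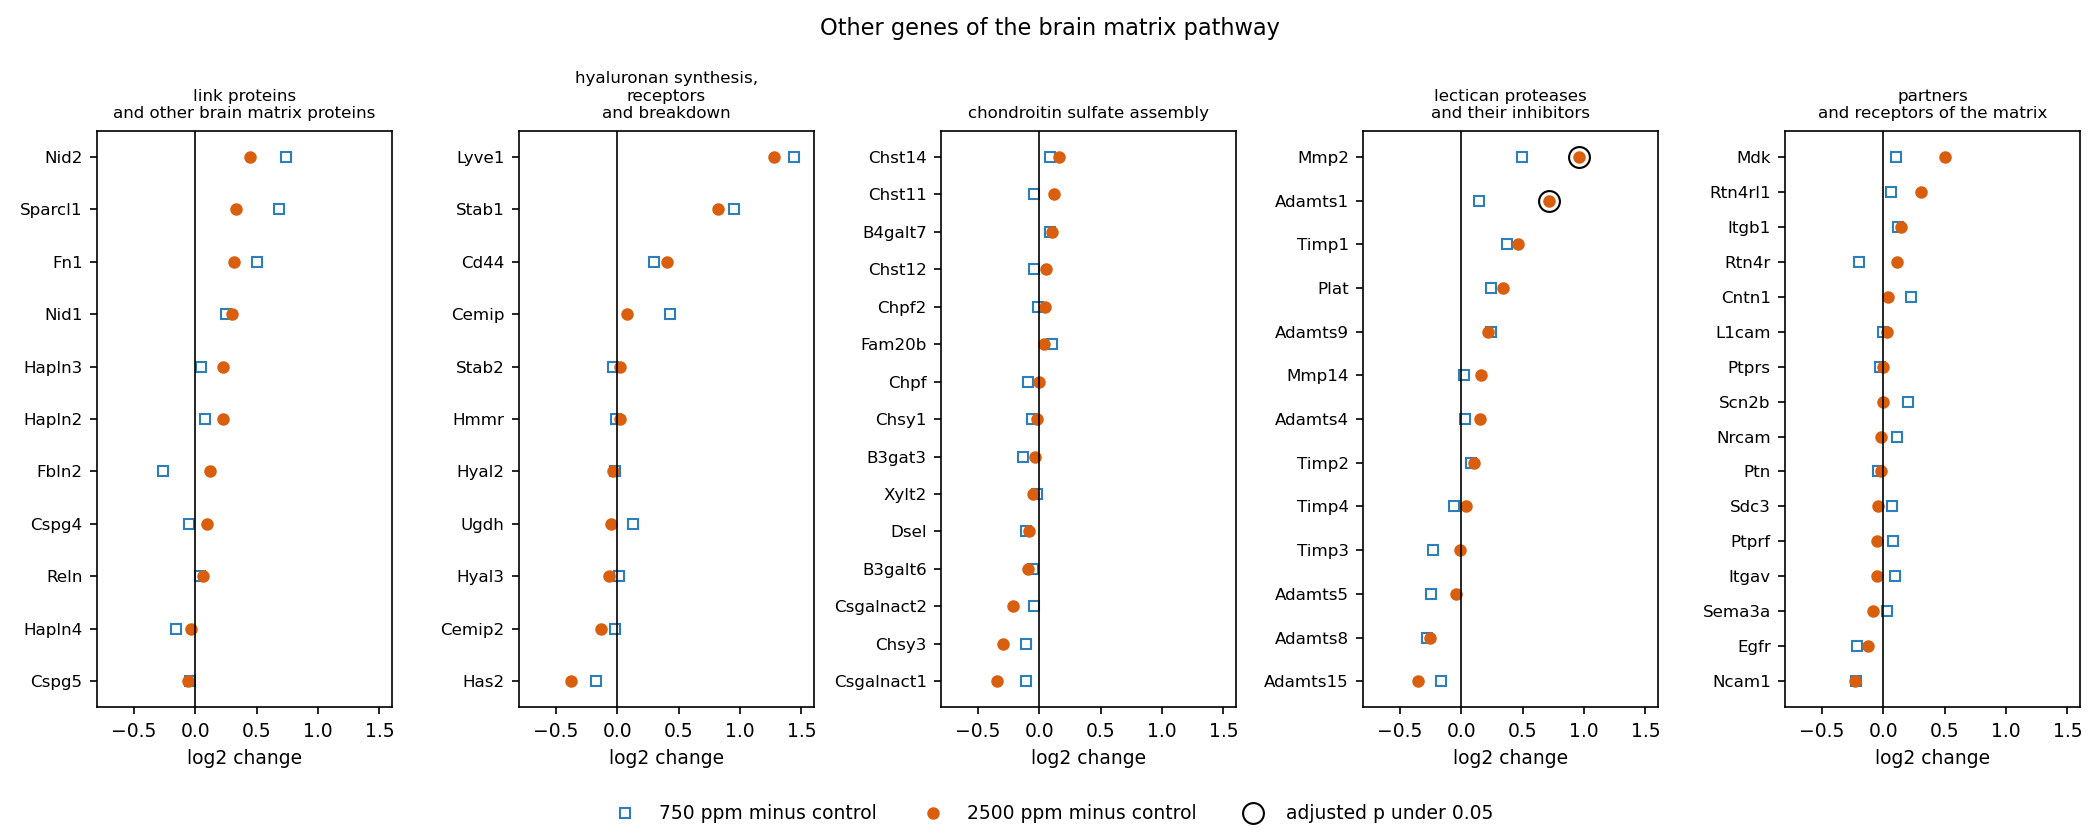
Log2 change against control of the tested genes of 5 matrix lists, 1 probe set a gene, at 750 ppm (open squares) and 2500 ppm (filled circles); rings mark an adjusted p under 0.05. Mmp2 at 0.96 and Adamts1 at 0.72 carry the rings, and most genes of chondroitin sulfate assembly lie near 0.

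Markers of other cells and tissues differed between the groups as well, and their part in these results was not tested. Fewer cells of a type and less RNA per cell cannot be told apart in pieces of tissue. Levels of a list are given as the mean of its genes relative to all 9 arrays. Striatal markers (14 tested of 14 measured) ranged from 0.31 to 0.73 in controls. They ranged from -0.96 to 0.56 at 750 ppm and from -1.03 to -0.069 at 2500 ppm. All 14 were lower than control at 2500 ppm with a median of -1.11. Of these, 9 had an unadjusted p under 0.05 in limma (background 6.27% lower) and 1 passed adjusted (background 0.612% in either direction). The 750 ppm array with the lowest striatal level, replicate 3, was the lowest of its group on 8 of the 17 member probe sets, among them Vcan 1388142_at and both of Ptprz1. It was the lowest of all 9 arrays on 4 of these (Bcan 1387934_at, Hapln1 1386310_at, Tnc and Ptprz1 1388015_at) and the highest of all 9 on Tnr. These counts pool probe sets of the same gene and include some under the filter, and their relation to striatal level was not tested. 750 ppm replicate 1, with a striatal level of 0.56, was the lowest of its group on 7 and of all 9 on 4, Tnr among them. Control replicate 3 was the lowest of its group on 12. The array with the lowest striatal level of all, 2500 ppm replicate 1 at -1.03, was the lowest of its group on 6 and the highest on 9.

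Meningeal and fibroblast markers (16 tested of 17 measured) ranged from -1.18 to -0.18 in controls, from 0.35 to 0.59 at 750 ppm and from -0.00067 to 0.39 at 2500 ppm. All 16 were higher than control at both doses, with a median of 1.24 at 750 ppm and 0.86 at 2500 ppm. Each had an unadjusted p under 0.05 in limma at both doses (backgrounds 7.14% higher at 750 ppm and 8.56% at 2500 ppm). After adjustment 2 passed at 2500 ppm (background 0.612% in either direction) and 0 at 750 ppm. Adamts1, Mmp2, Timp1, Nid1 and Cd44 were also higher at 2500 ppm, and Vcan lower. The meningeal median was larger at 750 ppm. So were the changes of Lyve1 (1.44 against 1.28 at 2500 ppm), Stab1 (0.95 against 0.82) and Nid2 (0.74 against 0.45). Mmp2 was at 0.49 at 750 ppm against 0.96 at 2500 ppm, Timp1 at 0.37 against 0.46 and Cd44 at 0.29 against 0.41. Adamts1 overlapped with controls at 750 ppm. What these orders of the doses reflect was not tested. Choroid plexus and ependymal markers (7 tested of 9) ranged from 0.27 to 1.55 at 2500 ppm, above all other arrays, at -0.74 to -0.31. Of the 7, 6 were higher at 2500 ppm at an unadjusted p under 0.05, and 1 passed adjusted. Microglial and macrophage markers (8 of 10), in whose company Lyve1 and Stab1 are usually found, ranged from -0.37 to -0.10 in controls, from -0.045 to 0.37 at 750 ppm and from 0.013 to 0.070 at 2500 ppm. Endothelial and pericyte markers (12 of 12) ranged from -0.39 to -0.080 in controls and from 0.045 to 0.16 on all exposed arrays. The 2 tested blood genes were higher than control in both groups, with a median of 0.57 at 2500 ppm. Both had an unadjusted p under 0.05 at each dose, and 1 passed adjusted at 2500 ppm. At 2500 ppm 2 of 8 microglial and 5 of 12 endothelial markers were higher at that unadjusted level, and 0 passed adjusted.

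Markers of the cells that make these matrix genes in the cortex are given for comparison. Oligodendrocyte precursor markers (5 of 7) had a median of -0.0072 at 2500 ppm, with 2 higher, 3 lower and 0 at an unadjusted p under 0.05. At 750 ppm the median was -0.050, with 4 of 5 lower and 2 of them at an unadjusted p under 0.05. Of the 5 at 2500 ppm, Pdgfra was among the 2 higher, at 0.11 (adjusted p = 0.606), and 3 were lower. Astrocyte and radial glia markers (13 of 13) had a median of 0.013 at 2500 ppm and 0.065 at 750 ppm, with 2 higher and 0 lower at p under 0.05 before adjustment at each dose. Cortical excitatory markers (9 of 10) had 2 higher and 2 lower at 2500 ppm, with a median of 0.17; at 750 ppm 8 of 9 were lower, 1 of them at an unadjusted p under 0.05, with a median of -0.18. Interneuron markers (7 of 8) had a median of -0.020 at 750 ppm and of -0.40 at 2500 ppm, there with 6 of 7 lower and 3 of them at an unadjusted p under 0.05. They ranged from 0.10 to 0.33 in controls and from -0.33 to -0.27 at 2500 ppm, and 750 ppm replicate 3, at -0.32, lay apart from its group. Pvalb, which marks the interneurons that later carry perineuronal nets, had a mean of 5.50 and was under the filter.

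**Figure D5:**
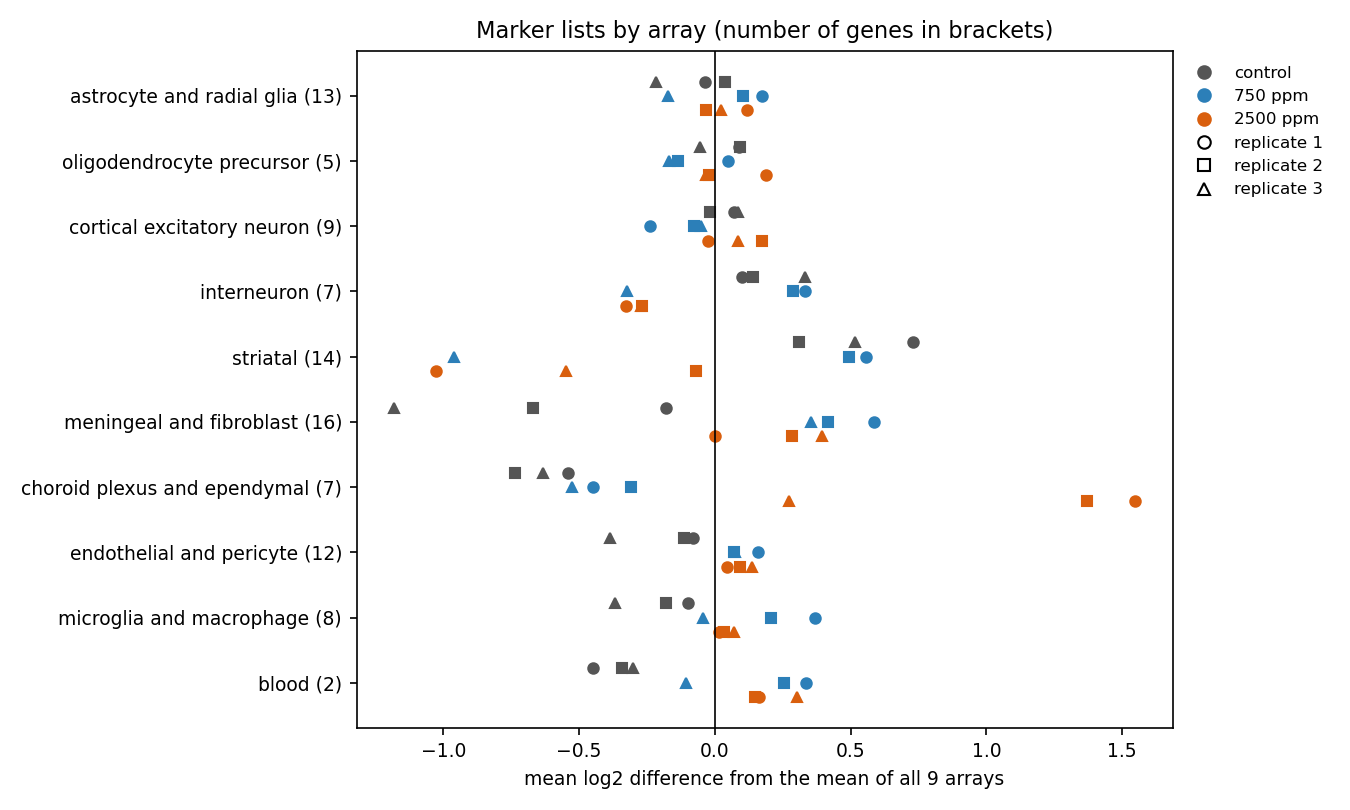
Mean log2 difference of each marker list from the mean of all 9 arrays, with 1 symbol per array, coloured by group and shaped by replicate number. Striatal markers reach down to -1.03 at 2500 ppm, meningeal markers are lowest in controls, and oligodendrocyte precursor and cortical excitatory markers stay within 0.24 of the mean.

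The genes whose pattern over the 9 arrays was most like that of a member were sought for the 3 genes with the widest range on their main probe set. Likeness was the mean absolute log2 difference between profiles, each centred on its own mean, over 11598 other genes. For Tnr these were Pcdh17 (0.11), Cxxc4 (0.14) and Zfp451 (0.15), against a median of 0.32 over all genes. For Hapln1 they were Tacc3 (0.074), Kif11 (0.075) and Pir (0.078), against 0.18, and for Vcan on 1388142_at Ssh1 (0.033), Proser1 (0.033) and Rhobtb3 (0.040), against 0.14. All of these share the same 9 arrays and their normalization.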

How the data were processed

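Cortical RNA was measured on 9 Affymetrix rat genome arrays. Per the submitters' processing notes, the authors used affy and RMA, which corrects background, quantile-normalizes and summarises probes; versions are not given in the sources used here. The deposited values are log2 intensities for 31099 probe sets, without detection calls, and differences are compressed near background. The 57 control probe sets and the dimmest 30% by mean were dropped, and 21729 were tested. limma 3.58.1 (R 4.3.3) fitted group means to the 9 arrays together, with two-sided tests and Benjamini-Hochberg adjustment over all 21729; the fit was tested on simulated data. Gene names came from the platform annotation, updated through Entrez identifiers to GRCr8 (20826 probe sets with 1 symbol, 436 with several, 9780 with none). Named genes are all members and up to 4 genes of each other list by smallest p. Members and lists were chosen with earlier results of these data known. Alternatives were filters, scaling, a replicate block, variance models, array weights, the arrays fitted and 1 probe set per gene. Litter numbers and pooling are not stated, so p-values measure the spread between these arrays.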

Additional observations from a re-analysis of the deposited data

How the results depend on the processing

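The number of member probe sets called at 2500 ppm, 1 as reported, was 0 after a second quantile normalization, without both control replicate 3 and 750 ppm replicate 3, and with 1 probe set per gene, was 2 with array weights and with only the groups compared, and ranged from 0 to 2 with 1 array left out. At an unadjusted p under 0.05 it was 8 instead of 4 with array weights and without both arrays, 2 with 1 probe set per gene, and 3 to 6 with 1 array left out. At 750 ppm that count was 1 instead of 2 with 1 probe set per gene and 0 to 3 with 1 array left out, and between the doses 1 instead of 3 and 0 to 4. For the slope, 1 instead of 0 passed with a trended and robust variance, 2 with array weights and 0 to 2 with 1 array left out; at an unadjusted p under 0.05 it was 7 instead of 4 with array weights, 8 without both arrays, 2 with 1 probe set per gene, and 2 to 6 with 1 array left out. Over all probe sets, the 149 calls at 2500 ppm (61 higher, 88 lower) became 74 and 71 under a second quantile normalization, 1495 with array weights, 481 with only the groups compared, 250 without both arrays, 66 with 1 probe set per gene and 9 to 447 with 1 array left out. The 2 calls at 750 ppm were 340 with array weights, 71 without both arrays, 1 with only the groups compared or 1 probe set per gene, and 0 to 49 with 1 array left out. The 70 between the doses were 36 with the replicate block, 721 with array weights, 14 with only the groups compared, 1137 without both arrays, 40 with 1 probe set per gene and 13 to 728 with 1 array left out. The 104 for the slope were 67 with the replicate block, 731 with array weights, 36 with 1 probe set per gene and 0 to 193 with 1 array left out. The cause of these shifts was not tested.

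Signs turned only for differences that had not passed. With array weights, Hapln1 1370125_at at 750 ppm was -0.18, Ptprz1 1368350_at at 750 ppm 0.031, Hapln1 1386310_at and Tnc between the doses -0.061 and -0.017, and the slope of Bcan 1387934_at -0.018. After median-centring, Hapln1 1370125_at at 750 ppm was -0.0079 and Ptprz1 1388015_at between the doses 0.00019; after a second quantile normalization Bcan 1387934_at at 2500 ppm was 0.021. Without both arrays, Hapln1 1370125_at at 750 ppm was -0.11, Ptprz1 1368350_at at 750 ppm 0.036, Acan 1368836_a_at at 2500 ppm -0.0068, and between the doses Hapln1 1386310_at -0.19, Tnc -0.066 and Tnr 0.083. With 1 array left out the ranges that crossed 0 at 750 ppm were -0.18 to 0.11 for Hapln1 1370125_at, -0.47 to 0.0072 for Hapln1 1386310_at, -0.10 to 0.045 for Ptprz1 1368350_at and -0.048 to 0.0054 for Acan 1387355_at. At 2500 ppm they were -0.047 to 0.078 for Bcan 1387934_at, -0.087 to 0.059 for Bcan 1369831_at, -0.28 to 0.013 for Hapln1 1370125_at and -0.0068 to 0.10 for Acan 1368836_a_at. Between the doses they were -0.13 to 0.058 for Ptprz1 1388015_at, -0.19 to 0.29 for Hapln1 1386310_at, -0.17 to 0.0075 for Hapln1 1370125_at, -0.066 to 0.089 for Tnc, -0.039 to 0.094 for Ncan, -0.47 to 0.083 for Tnr, -0.033 to 0.11 for Bcan 1369831_at and -0.10 to 0.021 for Vcan 1388142_at. For the slope they were -0.012 to 0.040 and -0.033 to 0.028 for the Bcan probe sets and -0.051 to 0.0017 for Tnc.

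Whether replicate numbers pair the arrays is not stated, and correlations over 3 arrays a group cannot settle it. Of 9 same-numbered pairs, 3 had deviations from their group means that correlated above 0.1 (range -0.21 to 0.31). For 4 of 9 arrays the best correlation was with an array of their own number. With the number as a block, Vcan 1371232_a_at at 2500 ppm was at -0.56 (adjusted p = 0.0449) and no member's call changed. RMA values near background limit what can be said of the 3 member probe sets under the filter.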
